A study of Mus musculus with 21 samples.

Results

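The basement membrane of brain vessels was followed through 10 genes that encode its structural proteins, in endothelial cells sorted from the mouse brain. The genes were chosen by name: Col4a1 and Col4a2 (collagen IV chains), Lama4, Lama5, Lamb1, Lamb2 and Lamc1 (laminin chains), Nid1 and Nid2 (nidogens) and Hspg2 (perlecan). The choice was made with earlier results of these data known. All 10 were found among the 24206 gene names used. The study used adult C57BL/6 mice aged 12 to 20 weeks, and live cells were sorted that carried CD31 and lacked CD45 and PDGFRb. Its design text asks which genes depend on Gpr124, a Wnt co-receptor of brain endothelium, and on beta-catenin, through which Wnt signals reach the nucleus.

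In the stroke experiment all 16 libraries came from mice given 1 h of occlusion of the middle cerebral artery (MCAO) and 1 d of reperfusion. The WT groups carried Gpr124 flox/+ with ROSA-CreER, and the Cko groups Gpr124 flox/- with ROSA-CreER, so the controls also carried a floxed allele and the recombinase. ROSA-CreER is an inducible Cre recombinase that acts in most cell types, and how it was induced is not given in the sources used here. WT-NS and Cko-NS are cells of the non-stroke hemisphere, and WT-ST and Cko-ST cells of the stroke hemisphere, with n = 4 libraries each. The non-stroke hemisphere is therefore not that of an unoperated mouse. The second experiment had no stroke. It held 3 Bcat libraries (Ctnnb1 lox(ex3)/+ with Cdh5-CreER, in which loss of exon 3 stabilises beta-catenin in endothelium) and 2 WT libraries with Ctnnb1 +/+ and Cdh5-CreER, called Bcat-WT here. Its libraries were made from total RNA, while the stroke libraries hold 3'-end tags of poly(A) RNA, so levels were not tested between the experiments. Where values or orders of both stand side by side, differences of library type and of the cells cannot be told apart.

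A basement membrane is a thin sheet of extracellular matrix under the endothelium. Collagen IV forms one network and laminins another, and nidogens and perlecan bind both. In brain vessels the sheet is laid down by endothelial cells, mural cells and astrocytes, and it carries the signals that hold these cells together. A laminin is a trimer of an alpha, a beta and a gamma chain. Lama4 and Lama5 encode the alpha chains of the endothelial laminins, Lamb1 and Lamb2 the beta chains and Lamc1 the gamma chain.

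Col4a1 (ENSMUSG00000031502) lies on the minus strand of chromosome 8, 11198423 to 11312826 in GRCm38, and Col4a2 (ENSMUSG00000031503) on the plus strand, 11312805 to 11449287. The 2 genes point away from each other, and their annotated starts overlap by the 22 bases at chr8:11312805-11312826. These bases are shown because the 2 genes, which form 1 protein trimer, had the clearest changes of the 10. They are printed from RefSeq (GRCm38.p6), 5′ to 3′ on each strand, with a GC box (GGGCGG or its reverse complement, the motif of Sp factors) in capitals.
Col4a2 strand: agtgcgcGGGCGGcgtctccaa
Col4a1 strand: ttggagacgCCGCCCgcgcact

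Nid1 lies on the plus strand of chromosome 13, 13437551 to 13512269. The 199 bases before its start, chr13:13437352-13437550, are shown because Nid1 was the other member called in both stroke comparisons. Capitals mark a CCAAT box on the reverse strand (ATTGG) and a GC box.
Nid1 upstream: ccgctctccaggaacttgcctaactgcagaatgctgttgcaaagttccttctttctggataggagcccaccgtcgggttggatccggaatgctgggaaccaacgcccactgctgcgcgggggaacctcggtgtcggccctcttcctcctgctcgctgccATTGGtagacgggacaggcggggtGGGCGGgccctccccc

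RefSeq promoters, 250 bases before to 50 after a start, were matched by symbol for 7 of the 10 genes, and for Lama4, Lamc1 and Nid2 none was shown. GGGCGG, on either strand, stood in 6 of the 7 and in 35.7% of all 32851 promoters. CCAAT, on either strand, stood in 4 of the 7 (Col4a1, Col4a2, Lamb1 and Nid1) and in 37.4% of all promoters. The windows of Col4a1 and Col4a2 overlap, so their matches are not wholly separate. The other members lie on chromosome 10 (Lama4, 38965515 to 39110188, plus), chromosome 2 (Lama5, 180176373 to 180225859, minus), chromosome 12 (Lamb1, 31265234 to 31329644, plus) and chromosome 9 (Lamb2, 108479736 to 108490530, plus). Lamc1 is on chromosome 1 (153218922 to 153332786, minus), Nid2 on chromosome 14 (19751265 to 19811787, plus) and Hspg2 on chromosome 4 (137468769 to 137570630, plus).

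Estimated depth was 4.72 to 19.6 M reads over the 16 stroke libraries, and it could not be resolved for the other 5. Its median was 7.18 M in WT-NS, 8.85 M in WT-ST, 8.79 M in Cko-NS and 14.3 M in Cko-ST. The part of depth in the members' values was not tested. The endothelial markers summed to 727 to 1096 RPKM in each stroke library and 1279 to 1691 in the others, so the labelled cell type was present throughout. Their median sum was lowest in WT-NS (758), beside 949 in WT-ST, 957 in Cko-NS and 1053 in Cko-ST. With stroke in WT, Cdh5 (log2 0.72, limma, adjusted p = 0.00532) and Pecam1 (0.45, adjusted p = 0.032) rose and Tek (-0.49, adjusted p = 0.0469) fell. In Cko, Cdh5 (0.75, adjusted p = 0.00404) rose, and Tek (-0.80, adjusted p = 0.00212) and Flt1 (-0.54, adjusted p = 0.0285) fell. No other endothelial marker was called. Of all genes 8.46% rose and 4.84% fell in WT, and 6.44% rose and 8.71% fell in Cko. The part of these differences in the members' values was not tested. Gpr124 averaged 4.49 RPKM in WT-NS, 4.99 in WT-ST, 2.76 in Cko-NS and 1.37 in Cko-ST, with ranges that overlapped in the non-stroke hemisphere. The 3' tags may lie outside the deleted exons and check the genotype only in part. Ctnnb1 averaged 221 RPKM in Bcat and 305 in Bcat-WT, which does not show the loss of exon 3. By label all WT-NS, WT-ST and Cko-NS libraries were female, as were Cko-ST 1 and 2. Cko-ST 3, Cko-ST 4 and the beta-catenin experiment were labelled male. Cko-NS 4, labelled female, and Cko-ST 3, labelled male, read as the other sex by Xist and Y-linked RNA. By RNA the only males of the stroke experiment were Cko-NS 4 and Cko-ST 4, so sex was not balanced between genotypes. Cko-NS 4 and Cko-ST 3 were kept in their labelled groups, and calls that change without them are given beside each gene. Leaving these out keeps the male Cko-ST 4, so it does not remove the imbalance. Whether each library is a separate mouse is not stated, and the spread behind the p-values may be technical.

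In WT-NS the members ranged widely in RPKM, a read count scaled to gene length and library size. Col4a1 was highest at 27.6 ± 8.53 RPKM (SD, n = 4), followed by Nid1 at 17.3 ± 8.96 and Col4a2 at 16.6 ± 3.41. Lamc1 (11.3 ± 1.38), Lama5 (7.41 ± 1.67), Lamb2 (6.50 ± 0.947), Nid2 (4.84 ± 0.910) and Lama4 (3.10 ± 1.07) came next. Hspg2 stood at 0.557 ± 0.227 and Lamb1 at 0.0870 ± 0.134. Library ranges of neighbours in this order overlapped from Col4a1 to Col4a2 and from Lamc1 to Nid2. They did not overlap between Col4a2 and Lamc1, between Nid2 and Lama4 (3.81 against 3.80 at the nearest), between Lama4 and Hspg2 or between Hspg2 and Lamb1.

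A tag near the 3' end is read once whatever the transcript's length, so dividing by length lowers long genes such as Hspg2. Multiplied by the length of the principal transcript, the order in WT-NS was the same except that Col4a2 (107 RPM, reads scaled to library size alone) and Nid1 (106 RPM) changed places. In the total RNA of Bcat-WT the order differed: Col4a2 (38.3 RPKM), Col4a1 (38.1), Lamb2 (36.6), Lamc1 (32.9) and Nid1 (30.1) were followed by Hspg2 (22.1), Lama4 (15.7), Lama5 (12.7), Nid2 (12.7) and Lamb1 (0.283). Lamb1, the only member below the test's filter of a mean of at least 1 RPKM, had an estimated 0.938 to 56.2 reads per stroke library (median 7.61). The other 9 members passed it in both experiments and were tested with limma on log2(RPKM + 1), where members with low RPKM show understated changes.

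**Figure D1:**
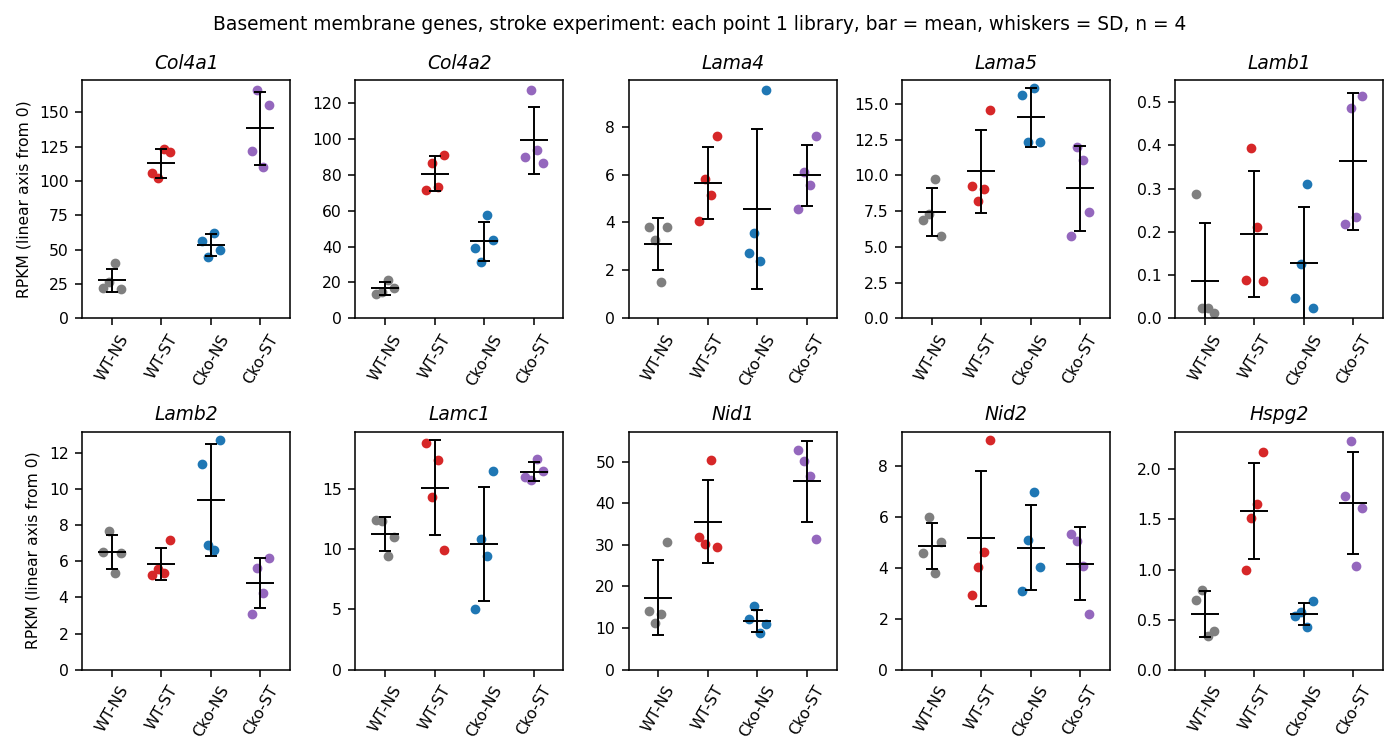
RPKM (linear axes from 0) of the 10 basement membrane genes in the 4 groups of the stroke experiment. Each point is 1 library, bars are means and whiskers are SD (n = 4, cut at 0); Col4a1 and Col4a2 of both stroke groups lie above both non-stroke groups, and Col4a1 of Cko-NS (44.6 to 62.3) lies above WT-NS (21.6 to 39.9).

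Collagen IV and Nid1 rose with stroke in both genotypes. Of the 9 members tested, 3 rose and none fell in WT-ST against WT-NS (Col4a1, Col4a2 and Nid1), where 8.46% of all 9838 genes tested rose and 4.84% fell. In Cko-ST against Cko-NS, 4 rose (Col4a1, Col4a2, Nid1 and Hspg2) and 1 fell (Lamb2), where 6.44% of all genes rose and 8.71% fell. Hspg2 passed the filter only through the stroke groups, where it was high, so its call is no support for the count, which is 3 rises without it. The members' median log2 fold change was 0.72 in WT, beside 0.01 over all genes, and 0.71 in Cko, beside -0.13. Both medians include Hspg2, so they too draw on a gene that entered through the stroke groups. In Cko 42.5% of all calls were rises as deposited, and 57.5% with median-of-ratios scaling, which moved the median of all genes to -0.02.

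Col4a1 encodes the more frequent chain of the collagen IV trimer. Its RPKM was 22.3, 26.6, 39.9 and 21.6 in WT-NS, and 106, 102, 123 and 121 in WT-ST. In Cko-NS it was 56.5, 44.6, 62.3 and 49.8, and in Cko-ST 122, 166, 110 and 155. Every stroke library lay above every non-stroke library, whatever its genotype. In the stroke experiment the share of all genes with groups apart was not counted, which limits this and later statements of groups apart. The rise was 2.03 ± 0.20 on the log2 scale (SE) in WT, or 4.09-fold, with an adjusted p of 2.96e-06 in limma. In Cko it was 1.35 ± 0.20, or 2.55-fold (adjusted p = 0.000175). Over the 26 alternative settings the WT value ranged from 1.88 to 2.22 and the Cko value from 1.26 to 1.49, and all passed.

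Col4a2 encodes the partner chain. It stood at 13.7, 14.4, 21.3 and 17.0 RPKM in WT-NS, and at 71.7, 86.5, 73.0 and 91.1 in WT-ST. Cko-NS libraries had 39.3, 31.5, 57.3 and 43.9, and Cko-ST libraries 89.7, 127, 93.8 and 86.7. As for Col4a1, no stroke library reached down to the non-stroke libraries. Col4a2 rose by 2.22 ± 0.20 in WT (4.67-fold, adjusted p = 1.34e-06) and by 1.20 ± 0.20 in Cko (2.30-fold, adjusted p = 0.00054), and both calls held in all 26 settings.

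Collagen IV was also higher in Cko-NS than in WT-NS, that is, between genotypes in the non-stroke hemisphere. Col4a2 rose by 1.31 ± 0.20 (2.48-fold, adjusted p = 0.0143) and ranked 2 of 9838 genes by p. Col4a1 rose by 0.96 ± 0.20 (1.94-fold, adjusted p = 0.046) and ranked 29. For both genes the 4 Cko-NS libraries lay above the 4 WT-NS libraries. These were the 2 members called, both higher, where 0.224% of all genes were called higher and 0.0915% lower. No other member passed, and the largest value among them was Lama5 (0.85 ± 0.26, adjusted p = 0.138).

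The Col4a2 call held in 24 of 26 settings and was lost without WT-NS 4 (1.33, adjusted p = 0.0589) and in a fit of the 2 groups alone (1.31, adjusted p = 0.105). The Col4a1 call held in 6 of 26: it was lost with median-of-ratios scaling (0.82, adjusted p = 0.111), without Cko-NS 4 and Cko-ST 3 (0.98, adjusted p = 0.0507) and in 13 of 16 fits that left out 1 library (0.86 to 1.14 over the 16). The median of all genes in this comparison was 0.11 as deposited and -0.01 after that scaling, and the share of all calls that were rises went from 71.0% to 46.7%. WT-NS and Cko-NS also enter the stroke comparisons, so these values are not independent of the stroke values above.

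In the stroke hemisphere no member was called between genotypes, where 0% of all genes passed, and no member had an unadjusted p under 0.05, beside 476 of the 9838 genes. Col4a1 differed by 0.28 (95% interval -0.14 to 0.69) and Col4a2 by 0.29 (-0.13 to 0.71). The test of the difference itself, the interaction of stroke and genotype, called 0 members and 0% of all genes. At an unadjusted p under 0.05 it held 3 members (Col4a1, Col4a2 and Lama5) and 691 of the 9838 genes. For Col4a2 the stroke effect in Cko minus that in WT was -1.02 ± 0.28 (unadjusted p = 0.00211, adjusted p = 0.681), and for Col4a1 it was -0.68 ± 0.28 (adjusted p = 0.681). A difference between genotypes in the response to stroke was therefore not established for either chain.

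**Figure D2:**
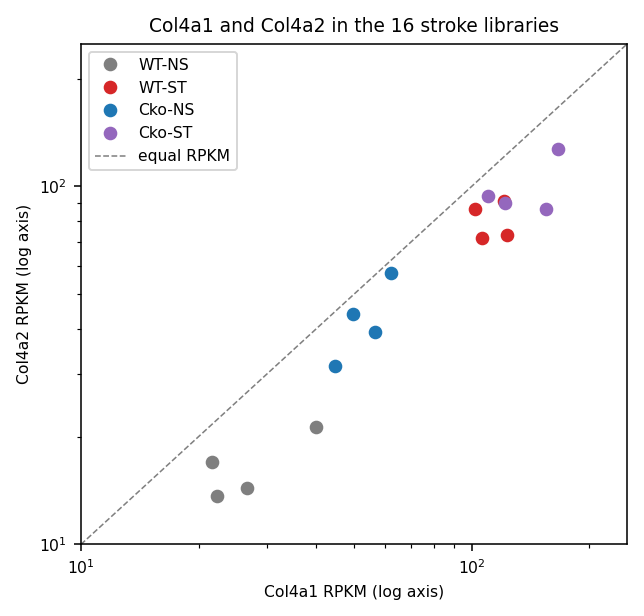
Col4a1 against Col4a2 RPKM, both on log axes, in the 16 stroke libraries, with a dashed line at equal RPKM. All points lie under the line, WT-NS at the lower left, Cko-NS between 44.6 and 62.3 RPKM of Col4a1, and both stroke groups at the upper right from 102 RPKM.

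Because both chains assemble into 1 trimer, their ratio within each library was followed as well. The log2 ratio of Col4a1 to Col4a2 averaged 0.68 ± 0.25 in WT-NS, 0.48 ± 0.21 in WT-ST, 0.32 ± 0.21 in Cko-NS and 0.47 ± 0.26 in Cko-ST (SD, n = 4 each). These groups overlapped, and no exact permutation test of this ratio passed (adjusted p of 0.343 to 0.914 over 15 tests of 3 ratios). The smallest p possible was 0.0286 for 4 against 4 libraries and 0.1 for 3 against 2. After adjustment over 15 tests a lone comparison could not pass, so not passing says little. As a description over 16 libraries, deviations of Col4a1 and Col4a2 from their group means correlated with r = 0.63, and such deviations share library and depth. The genes whose deviations were most like both chains were Rpl36al (a ribosomal protein gene, mean r = 0.79), Mpc1 (a mitochondrial pyruvate carrier, 0.67) and Esam (an endothelial adhesion molecule, 0.67), of 5838 genes with a mean of at least 5 RPKM.

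Among the laminin chains only Lamb2 was called in the stroke experiment. Lamb2, a beta chain, was 11.4, 6.92, 6.62 and 12.7 RPKM in Cko-NS and 3.10, 5.62, 4.23 and 6.20 in Cko-ST. All Cko-ST libraries lay below all Cko-NS libraries, and Cko-NS 1 and Cko-NS 4 were the highest. Lamb2 fell by 0.83 ± 0.26 on the log2 scale (limma, adjusted p = 0.0391). In WT it was 6.49, 7.68, 5.36 and 6.48 without stroke and 5.26, 5.58, 5.36 and 7.17 with stroke, groups that overlapped (-0.13 ± 0.26, adjusted p = 0.805). The Cko call was lost without Cko-NS 4 and Cko-ST 3 (-0.65, adjusted p = 0.168) and with median-of-ratios scaling (-0.71, adjusted p = 0.0701), and it held in 16 of 26 settings. It was also lost without WT-ST 2, Cko-NS 1, Cko-NS 4, Cko-ST 1, Cko-ST 2 or Cko-ST 3 alone, with values of -0.91 to -0.68 and adjusted p of 0.0521 to 0.127.

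Lama5, the alpha chain known for limiting leukocyte passage, was 6.85, 7.32, 9.72 and 5.75 RPKM in WT-NS and 15.6, 12.3, 16.1 and 12.3 in Cko-NS. WT-ST had 9.28, 8.20, 9.07 and 14.6, and Cko-ST 5.78, 12.0, 11.1 and 7.45. Cko-NS was the highest group, and its libraries lay above all of WT-NS and all of Cko-ST. How many of all genes were apart in this way was not counted. Unadjusted p in limma was under 0.05 for 14.3% of all genes between WT-NS and Cko-NS and for 29.2% with stroke in Cko. No comparison of Lama5 passed: the stroke effect was 0.41 ± 0.26 in WT (adjusted p = 0.328) and -0.62 ± 0.26 in Cko (adjusted p = 0.113), and the interaction was -1.03 ± 0.36 (adjusted p = 0.681).

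Lama4, the other endothelial alpha chain, stood at 3.80, 3.26, 1.53 and 3.79 RPKM in WT-NS and at 4.05, 5.81, 5.14 and 7.59 in WT-ST. These groups did not overlap, a pattern not counted over all genes, and the difference of 0.72 ± 0.34 did not pass (adjusted p = 0.186). In Cko-NS it was 2.73, 3.56, 2.41 and 9.52, and in Cko-ST 4.55, 6.12, 5.57 and 7.62, with Cko-NS 4 above every stroke library. The log2 ratio of Lama4 to Lama5 averaged -1.06 in WT-NS, -0.76 in WT-ST, -1.59 in Cko-NS and -0.50 in Cko-ST. The difference with stroke in Cko was 1.09 (exact permutation p = 0.0857, adjusted p = 0.343, smallest p possible 0.0286), and the groups overlapped through Cko-NS 4.

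Lamc1, the gamma chain common to these laminins, ranged from 9.41 to 12.4 RPKM in WT-NS and from 9.92 to 18.8 in WT-ST. In Cko-NS it was 5.01, 10.8, 9.42 and 16.5, and in Cko-ST 16.0, 15.7, 17.5 and 16.5. The Cko-ST libraries lay close together, and Cko-NS 4 was the Cko-NS library within their range. Lamc1 had a stroke effect of 0.37 ± 0.28 in WT (adjusted p = 0.431) and 0.71 ± 0.28 in Cko (adjusted p = 0.092). Without Cko-NS 4 and Cko-ST 3 the Cko value was 0.92 and passed (adjusted p = 0.0428), as it did without Cko-NS 4 alone (0.95, adjusted p = 0.0217) and with median-of-ratios scaling (0.84, adjusted p = 0.0478). Lamb1 had group means of 0.0870 to 0.363 RPKM in the stroke experiment, and it was not tested.

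Of the nidogens, which bridge laminin and collagen IV, Nid1 rose with stroke and Nid2 was not called. Nid1 was 14.2, 11.1, 13.4 and 30.6 RPKM in WT-NS and 31.8, 30.3, 50.5 and 29.6 in WT-ST. Cko-NS libraries had 12.1, 15.2, 8.72 and 10.9, and Cko-ST libraries 52.9, 50.2, 46.6 and 31.3. In Cko the groups were apart, and in WT they met only at WT-NS 4 (30.6). Nid1 rose by 1.07 ± 0.28 in WT (2.10-fold, adjusted p = 0.0169) and by 1.86 ± 0.28 in Cko (3.63-fold, adjusted p = 0.000255). The WT call was lost without WT-NS 2 (0.91, adjusted p = 0.0606), WT-NS 3 (0.99, adjusted p = 0.0501) or WT-ST 3 (0.89, adjusted p = 0.0663), and the Cko call held in all 26 settings.

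The 2 stroke effects on Nid1 differed by 0.79 ± 0.40, which did not pass (adjusted p = 0.71). Nid2 group means lay between 4.17 and 5.15 RPKM in the stroke experiment, and its libraries ranged from 2.19 (Cko-ST 4) to 9.00 (WT-ST 4). Its stroke effect was -0.00 in WT (95% interval -0.68 to 0.67) and -0.17 in Cko (-0.84 to 0.51). The log2 ratio of Nid1 to Nid2 averaged 1.55 in WT-NS, 2.63 in WT-ST, 1.16 in Cko-NS and 3.18 in Cko-ST. In Cko its groups did not overlap (0.29 to 1.68 against 3.08 to 3.34) and differed by 2.03, with an exact permutation p of 0.0286, the smallest that 4 against 4 can give (adjusted p = 0.343).

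Hspg2 encodes perlecan, the heparan sulfate proteoglycan of the basement membrane. Its RPKM was 0.699, 0.800, 0.339 and 0.391 in WT-NS and 1.00, 1.51, 1.65 and 2.17 in WT-ST. In Cko-NS it was 0.534, 0.575, 0.429 and 0.688, and in Cko-ST 1.73, 2.28, 1.04 and 1.61. Every stroke library lay above every non-stroke library at these low levels, an estimated 35.8 to 449 reads per library. Its mean reached the filter of 1 RPKM only through the stroke groups (1.58 and 1.66, beside 0.557 and 0.556 in the non-stroke groups). Hspg2 rose by 0.76 ± 0.25 in Cko (limma, adjusted p = 0.0498), and its difference in WT was 0.72 ± 0.25 (adjusted p = 0.0657). The Cko call held in 7 of 25 settings and was lost in 14 of 16 fits that left out 1 library (0.65 to 0.88 over the 16). In WT the difference passed in 2 of 25 settings, with no filter (adjusted p = 0.0391) and with no trend (adjusted p = 0.0288). The Cko call also held in these (adjusted p = 0.0285 and 0.0204). With a pseudocount of 0.1 the difference was 1.39 in Cko (adjusted p = 0.0574) and 1.38 in WT (adjusted p = 0.0645).

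**Figure D3:**
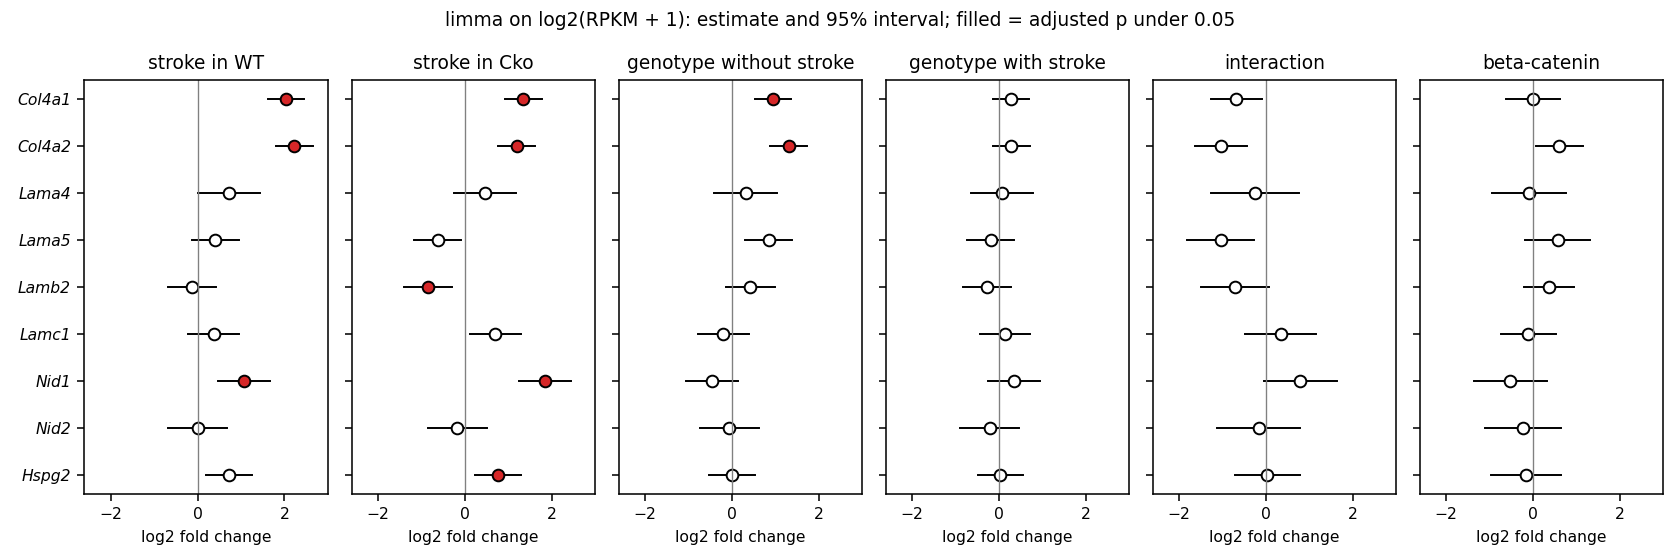
Log2 fold changes (x axis, log2(RPKM + 1) scale) of the 9 tested genes in 6 comparisons, with 95% intervals and filled points at an adjusted p under 0.05; "without stroke" is the non-stroke hemisphere and "interaction" the stroke effect in Cko minus that in WT. The filled points are Col4a1, Col4a2 and Nid1 in both stroke panels, Lamb2 and Hspg2 in the Cko panel, and Col4a1 and Col4a2 in the panel of genotypes without stroke.

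Genes that act with these proteins were counted from 3 lists, also chosen with earlier results of these data known. Of 17 other basement membrane components 3 passed the filter: Sparc, a collagen-binding matrix protein, rose with stroke in WT (1.35 ± 0.18, adjusted p = 6.01e-05) and Cko (1.26 ± 0.18, adjusted p = 0.000124). Agrn, the heparan sulfate proteoglycan agrin, fell in Cko by 1.49 ± 0.26 (adjusted p = 0.000869), and in WT its value was -0.63 ± 0.26 (adjusted p = 0.129). Sparc went from 412 to 1054 RPKM in WT and Agrn from 40.7 to 13.1 in Cko. Npnt, the third that passed the filter, was not called. The list's median was -0.58 in WT and -0.16 in Cko, beside 0.01 and -0.13 over all genes, of which 8.46% rose in WT and 6.44% rose and 8.71% fell in Cko.

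Of 19 genes for folding, modification, export and cross-linking of collagen, 12 were tested and 1 rose in each genotype, a share near that of all genes (8.46% in WT and 6.44% in Cko). Serpinh1, the collagen chaperone HSP47, rose in WT (1.84 ± 0.35, adjusted p = 0.00157), from 5.92 to 22.9 RPKM, and its value in Cko was 0.87 ± 0.35 (adjusted p = 0.0973; 13.5 and 22.8 RPKM). P4hb, a subunit of prolyl 4-hydroxylase, rose in Cko (0.80 ± 0.21, adjusted p = 0.0169), from 16.4 to 28.3 RPKM, and its value in WT was 0.54 ± 0.21 (adjusted p = 0.108; 18.9 and 27.9 RPKM). In the interaction neither passed (Serpinh1 -0.97, adjusted p = 0.71, and P4hb 0.26, adjusted p = 0.889). The list's median was 0.05 in WT and -0.21 in Cko, beside 0.01 and -0.13 over all genes.

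Of 12 basement membrane receptors 8 were tested, and 2 rose in both genotypes, where 8.46% of all genes rose in WT and 6.44% in Cko. Mcam, a laminin-binding adhesion molecule, rose by 2.63 ± 0.23 in WT (adjusted p = 1.15e-06) and 2.41 ± 0.23 in Cko (adjusted p = 4.51e-06). Itgb1, the beta subunit of the main laminin and collagen integrins, rose by 0.98 ± 0.17 (adjusted p = 0.000941) and 1.33 ± 0.17 (adjusted p = 5.44e-05). Dag1, which encodes dystroglycan, fell in Cko (-1.17 ± 0.38, adjusted p = 0.0453), where 8.71% of all genes fell. The list's median was 0.03 in WT and -0.10 in Cko. No gene of the 3 lists was called between genotypes, in the interaction or in the beta-catenin experiment.

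Mural cells also make collagen IV, laminins and nidogens, so their markers were read beside these results. The 10 mural markers summed to 50.5 to 70.6 RPKM in WT-NS, 12.5 to 49.3 in WT-ST, 23.5 to 33.8 in Cko-NS and 15.6 to 103 in Cko-ST, with Rgs5 the most abundant. Rgs5 averaged 49 RPKM in WT-NS, 19.2 in WT-ST, 21.7 in Cko-NS and 34.6 in Cko-ST. No mural marker was called in any of these comparisons, with 4 of the 10 tested. Rgs5 differed by -1.72 ± 0.60 with stroke in WT (limma, adjusted p = 0.0666). Pdgfrb, the marker used in the sort, averaged 0.0670 to 0.210 RPKM in the 4 groups.

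The 6 fibroblast markers summed to at most 2.09 RPKM in the stroke libraries, with Col1a1 at 0 in all of them, and the 5 astrocyte markers to at most 15.5. The 3 oligodendrocyte markers ranged from 15.1 to 956 RPKM, with medians of 341 in WT-NS, 155 in WT-ST, 187 in Cko-NS and 79.0 in Cko-ST. The 6 microglial and macrophage markers had medians of 7.67, 1.20, 7.57 and 1.16 in the same order, and the 3 neuron markers of 7.29, 4.43, 5.95 and 1.33. The microglial marker P2ry12 fell with stroke in WT (-1.56 ± 0.50, limma, adjusted p = 0.0452), where 4.84% of all genes fell. Snap25, a neuron marker, fell in Cko (-1.90 ± 0.51, adjusted p = 0.0179), where 8.71% fell. Of the markers of these cell types that were tested, no other was called in the stroke experiment. The part of these cells in the members' values was not tested. In sorted bulk RNA, fewer cells of a type and less RNA per cell cannot be told apart.

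In the beta-catenin experiment 0 of the 9 tested members passed, as did 0% of the 11252 genes tested with limma, and the same held in each of the 13 alternative settings. At an unadjusted p under 0.05 it held 1 member, Col4a2, and 590 of the 11252 genes. Col4a2 was 55.4, 61.7 and 60.5 RPKM in Bcat and 38.8 and 37.7 in Bcat-WT, a difference of 0.61 ± 0.24 on the log2 scale (adjusted p = 0.911). Col4a1 was 44.4, 32.0 and 39.0 in Bcat and 39.3 and 36.8 in Bcat-WT, a difference of 0.00 with a 95% interval of -0.61 to 0.62.

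In 3 members all Bcat libraries lay above both Bcat-WT libraries, and in 0 they lay below. Over all 11252 genes tested 8.66% lay above and 11.7% below. The 3 were Col4a2, Lama5 (20.5, 16.6 and 21.3 against 13.0 and 12.3 RPKM) and Lamb2 (43.2, 49.5 and 49.8 against 34.3 and 38.9). Lama5 differed by 0.57 ± 0.33 (adjusted p = 0.966) and Lamb2 by 0.37 ± 0.26 (adjusted p = 0.966). The remaining members overlapped between the groups, and Bcat 3 stood apart in several.

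Nid1 was 31.4, 19.4 and 14.4 in Bcat and 27.8 and 32.4 in Bcat-WT (-0.52 ± 0.37, adjusted p = 0.966). Bcat 3 was lowest in Nid1, Lamc1 (26.7, where the other 4 libraries had 32.7 to 33.2) and Hspg2 (13.3, where they had 22.0 to 24.6), and highest in Lama4 (21.4, where they had 11.6 to 15.8). Nid2 ranged from 8.46 to 13.7 in Bcat and from 11.7 to 13.6 in Bcat-WT. Lamb1 was at most 0.769 RPKM in Bcat, and in Bcat-WT it was 0.567 in 1 library and listed at 0 in the other.

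**Figure D4:**
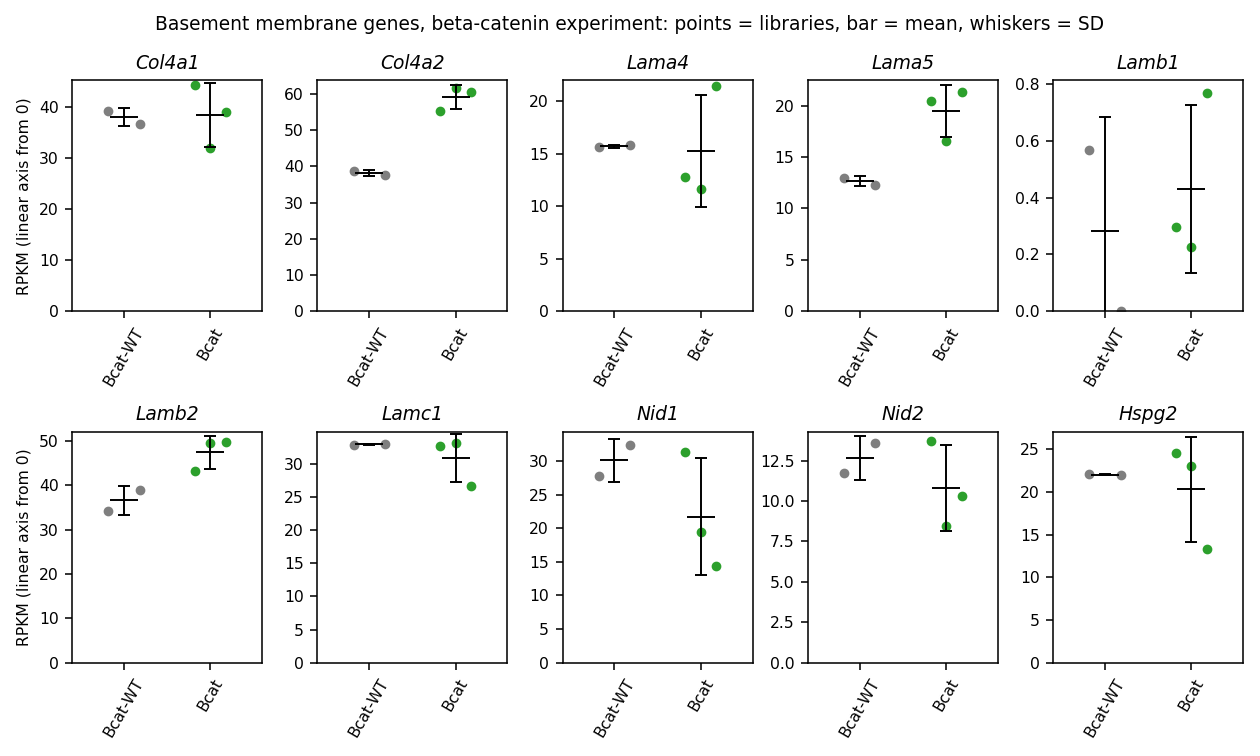
RPKM (linear axes from 0) of the 10 genes in the beta-catenin experiment, with 1 point per library, bars for means and whiskers for SD (cut at 0; 2 Bcat-WT and 3 Bcat libraries). The groups are apart for Col4a2 (55.4 to 61.7 against 37.7 to 38.8), Lama5 and Lamb2.

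With Col4a2 but not Col4a1 apart, the log2 ratio of Col4a1 to Col4a2 was -0.31, -0.93 and -0.62 in Bcat and 0.02 and -0.03 in Bcat-WT. The groups did not overlap, and the difference of -0.61 had an exact permutation p of 0.2 (adjusted p = 0.429), where 3 against 2 libraries cannot go below 0.1. The ratio of Lama4 to Lama5 was -0.64, -0.48 and 0.00 in Bcat and 0.24 and 0.33 in Bcat-WT, also apart, with the same p. That of Nid1 to Nid2 was 0.44 to 1.14 in Bcat and 1.18 to 1.20 in Bcat-WT (difference -0.29, exact permutation p = 0.5, adjusted p = 0.577). Summed mural markers were 35.5 to 112 RPKM in Bcat and 35.7 in both Bcat-WT libraries, and their part in these values was not tested.

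**Figure D5:**
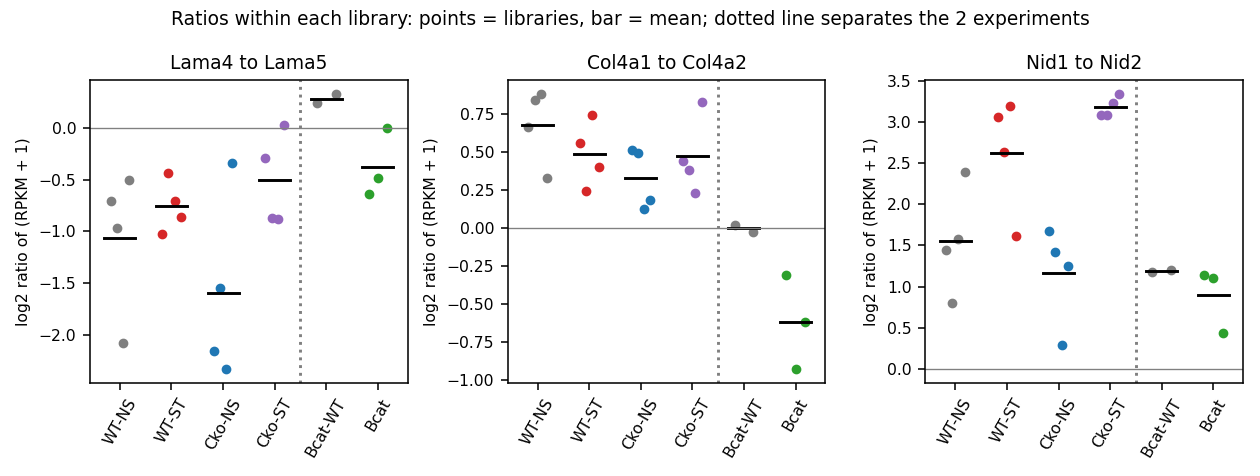
Log2 ratios of (RPKM + 1) of Lama4 to Lama5, Col4a1 to Col4a2 and Nid1 to Nid2 within each library, with bars at group means and a dotted line between the 2 experiments. In the right panel Cko-ST (3.08 to 3.34) lies above Cko-NS (0.29 to 1.68), and in the middle panel Bcat (-0.93 to -0.31) lies below Bcat-WT.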

How the data were processed

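RNA was sequenced from sorted brain endothelial cells in 16 libraries of a stroke experiment and 5 of a beta-catenin experiment. The authors deposited RPKM values; edgeR and mm10 are named, per the submitters' processing notes. Of the aligner, annotation, gene lengths and strand use nothing is given in the sources used here. Of 24260 rows, 54 that shared 23 names were left out, as were 8 columns that belong to no sample described. Stroke depth was estimated from the steps between low RPKM values, taking the commonest step as 1 read, which 195 genes set (whole within 0.01). RPKM are not counts and the authors' gene lengths are unknown, so no count test was run.

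Tests were run in R 4.3.3 with limma 3.58.1, on log2(RPKM + 1) for genes with a mean of at least 1 RPKM (eBayes with a trend, two-sided, Benjamini-Hochberg over all genes, threshold 0.05). Xist and 4 Y-linked genes were left out. One fit covered the 16 stroke libraries and another the 5 others. Ratios within libraries had two-sided exact permutation tests, adjusted over 15 tests. Alternatives were pseudocounts of 0.1 and 5, no filter or a mean of at least 5, median-of-ratios scaling, quantile normalization, no trend, each library left out, Cko-NS 4 and Cko-ST 3 left out, a replicate block and fits of 2 groups. The fit was tested on simulated data. Members and lists were chosen with earlier results of these data known. Named genes were the 10 members, up to 4 called genes per list with the lowest p, and the 3 most like Col4a1 and Col4a2 in deviations from group means. Coordinates are from GENCODE (GRCm38, the assembly also called mm10). The order of levels used GENCODE transcript lengths, chosen after seeing the data.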

Additional observations from a re-analysis of the deposited data

Results flagged for a closer look

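In 6 of the 40 sets of 4 libraries (10 genes in 4 stroke groups) 1 library stood far from the other 3 by Dixon's criterion. About 1 of 20 groups of independent, normally distributed values meets it. These sets share libraries and hold RPKM without a log, so no excess can be read from the count. Nid1 was 30.6 RPKM in WT-NS 4, where the other 3 had 11.1 to 14.2, and 50.5 in WT-ST 3, where they had 29.6 to 31.8. Lama4 was 9.52 in Cko-NS 4, beside 2.41 to 3.56. WT-ST 4 was high in Lama5 (14.6, beside 8.20 to 9.28) and in Lamb2 (7.17, beside 5.26 to 5.58). Lamb1 was 0.288 in WT-NS 1, beside 0.0118 to 0.0244, a level that rests on few reads.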

How the results depend on the processing

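The count of called members in WT with stroke was 2 to 4 under every alternative, and the counts between genotypes with stroke, in the interaction and in the beta-catenin experiment stayed at 0. In Cko with stroke 5 members were called as deposited, 3 in a fit of 2 groups and 3 to 5 without a library. With either other pseudocount, a mean of at least 5 RPKM, quantile normalization or the replicate block 4 were called. With median-of-ratios scaling, or with Cko-NS 4 and Cko-ST 3 left out, 5 were called, but Lamc1 stood in place of Lamb2. Col4a1, Col4a2 and Nid1 were called in every setting. Between genotypes without stroke 2 were called as deposited, 1 with a pseudocount of 5, no filter, median-of-ratios scaling, quantile normalization, no trend or Cko-NS 4 and Cko-ST 3 left out, 0 in a fit of 2 groups, and 0 to 2 without a library. All genes called there numbered 31 as deposited, 19 with no filter, 84 at a mean of at least 5 RPKM, 12 with no trend, 60 with the replicate block, 2 in a fit of 2 groups and 1 to 54 without a library (1 without WT-NS 4). Between genotypes with stroke 0 genes were called as deposited, 8 without WT-ST 3 and 3 without Cko-ST 3. The cause of these changes was not tested.

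The labels do not say that equal replicate numbers are 1 mouse, and the labelled sex differs between hemispheres for Cko 3 and Cko 4. Pairing was therefore not taken as given, and the stroke tests treated the libraries as separate. Same-numbered libraries of the 2 hemispheres correlated with r of 0.01 to 0.13 in WT and 0.10 to 0.21 in Cko, as deviations from group means. As a hint of pairing from the data, 7 of 8 libraries correlated best with their own number, and in Cko same-numbered libraries read as the same sex by RNA. The replicate block shared 1 term among all libraries of equal number, WT and Cko alike, so it did not model hemispheres within a mouse. Pairing within each genotype was not fitted. The block left 3 called members in WT, 4 in Cko (Hspg2 lost, adjusted p = 0.062), 2 between genotypes without stroke and 0 elsewhere. For ratios no block was fitted. With the block, differences near 0 in the beta-catenin experiment changed sign: Col4a1 -0.01, Lamc1 0.00 and Hspg2 0.10.

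All other sign changes were of values not called. With stroke in WT, Nid2 was 0.02 with a pseudocount of 5 and -0.27 to 0.18 without a library; in Cko it was 0.03 with quantile normalization and -0.32 to 0.05 without a library. Between genotypes without stroke Hspg2 was -0.04 with either scaling and -0.06 to 0.08 without a library, Nid2 -0.21 to 0.11, Lamc1 -0.43 to 0.08 and Lama4 -0.04 to 0.51. With Cko-NS 4 and Cko-ST 3 left out, Lama4 was -0.04, Nid2 0.01 and Hspg2 -0.03 there, and the Lama4 interaction 0.14. Between genotypes with stroke, without a library, Lama4 was -0.05 to 0.21, Hspg2 -0.07 to 0.17, Lamc1 -0.03 to 0.26 and Nid2 -0.40 to 0.05. In the interaction Nid2 was 0.07 with quantile normalization and -0.35 to 0.10 without a library, Hspg2 -0.08 to 0.16 and Lama4 -0.43 to 0.11. In the beta-catenin experiment, without a library, Col4a1 was -0.10 to 0.13, Lama4 -0.34 to 0.07, Lamc1 -0.15 to 0.00 and Hspg2 -0.32 to 0.10. The ratio difference of Lama4 to Lama5 with stroke in WT was -0.03 to 0.49, and that of Col4a1 to Col4a2 between genotypes with stroke -0.13 to 0.07. Lamb1 and Hspg2 rest on the fewest reads.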
